A study of Mus musculus with 6 samples.

Results

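Transglutaminases and peptidylarginine deiminases (the latter abbreviated Padi in the mouse) are enzymes that modify proteins of cornifying epithelium after they are made. The genes examined were the transglutaminases Tgm1, Tgm2, Tgm3, Tgm5 and Tgm6 and the deiminases Padi1, Padi2, Padi3 and Padi4. These 9 genes were taken by symbol from the 24063 gene symbols of the count data, each as the transcript with its highest mean count. All 9 passed the filter on low counts, among 16336 genes tested.

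RNA sequencing compared penile tumors of 3 SA mice with penile epithelium of 3 wild type (WT) mice. The WT samples are titled WT penis, and the study's methods describe them as normal epithelium. SA mice were PB-Cre+ Smad4L/L ApcL/L males, in which Cre recombinase removes the conditional alleles of Smad4, the common mediator of TGF-beta and BMP signals, and Apc, a brake on beta-catenin. Their tumors arose without a carcinogen and were taken at 5 months, and the WT mice were C57BL/6 males of the same age. PB-Cre (the PB-Cre4 line) is driven by an androgen-responsive probasin promoter that is active in prostate and penile epithelium, and the deletion is limited to cells in which it is active. The 6 samples held between 23828283 and 110509147 counts, and SA tumor 3 was the deepest. Over whole transcripts, Smad4 was 39.6 ± 5.61 CPM (counts-per-million, scaled for library composition by TMM, SD, n = 3) in SA tumors and 67.8 ± 5.92 CPM in WT penises. Apc was 215 ± 33.4 CPM in SA tumors and 79.6 ± 15.1 CPM in WT penises, and these counts do not isolate the deleted exons.

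A transglutaminase joins a glutamine of one protein to a lysine of another, with calcium as cofactor. In the epidermis and hair follicle this bond welds proteins such as loricrin, involucrin and the small proline-rich proteins into the cornified envelope, the insoluble shell of a dead keratinocyte. Peptidylarginine deiminases, also dependent on calcium, turn arginine into citrulline, which removes a positive charge and loosens proteins such as filaggrin, keratins and trichohyalin, a protein of the hair's inner root sheath and medulla, before they are cross-linked or broken down.

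Of the 4 deiminases 3 rose past both thresholds in SA tumors, and none of the 5 transglutaminases did so. The 3 were Padi3, Padi4 and Padi1, the thresholds were an adjusted p below 0.01 and a log2 fold change of 2 or more in either direction, and Tgm2 fell past them. Thus 3 of the 9 genes were higher and 1 was lower, where 9.41% of all genes tested were higher and 3.59% were lower. At the adjusted p alone 3 were higher and 2 were lower, beside 20.1% and 17.5% of all genes. The median log2 fold change was 4.98 over the 4 deiminases and -0.63 over the 5 transglutaminases, beside 0.03 over all genes tested.

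**Figure D1:**
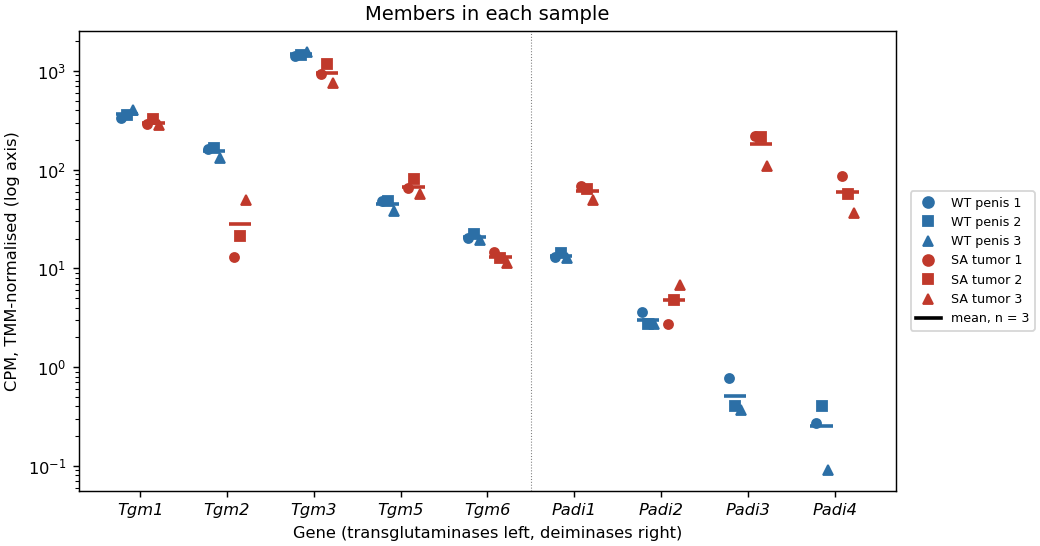
CPM of the 9 genes (log axis) in each of 3 WT penises (blue) and 3 SA tumors (red), with a bar at each group's mean. Padi3 and Padi4 lie below 1 CPM in every WT penis and above 36 CPM in every SA tumor, while the log2 fold changes of the transglutaminases other than Tgm2 lie between -0.68 and 0.58.

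**Figure D2:**
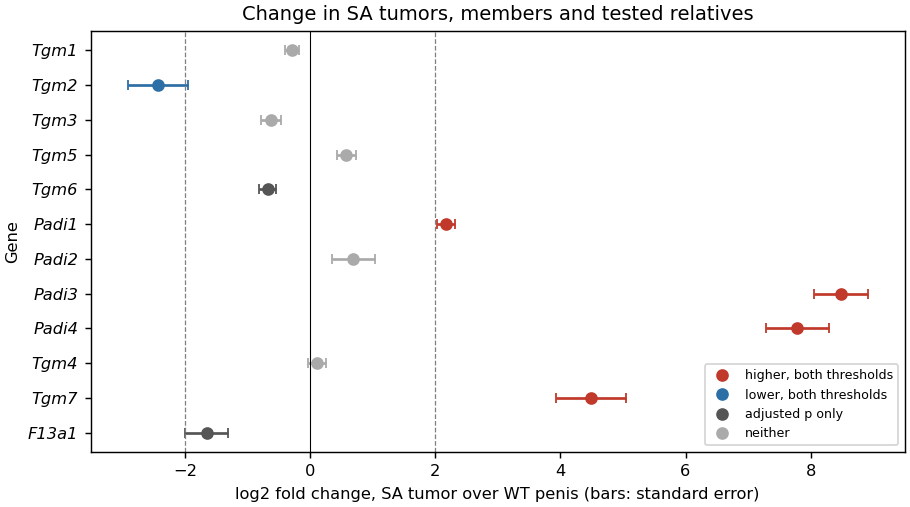
Log2 fold change of SA tumor over WT penis, with its standard error, for the 9 genes and 3 related genes with enough counts to test. Dashed lines mark the fold threshold of 2 on the log2 scale. Padi3 (8.48), Padi4 (7.79), Tgm7 (4.49) and Padi1 (2.17) lie above the upper line and Tgm2 (-2.43) below the lower one.

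Padi1, Padi3 and Padi4 are neighbours on chromosome 4, and the promoters of these 3 genes are printed with that of Tgm3, the most abundant of the 9 genes, so that the starts of the genes that rose can be read beside one that did not rise. Each is the stretch from 250 bases before to 50 bases after the start site, 5′ to 3′ on the gene's strand, from RefSeq for GRCm38.p6. For Tgm3 that start site lies inside the gene's RefSeq extent (chr2:129987794-130050399) and not at its outer end. Capitals mark matches on either strand to 4 motifs: CTTTGAT (bound by TCF/LEF factors, the partners of beta-catenin), TGANTCA (AP-1), CAGAC (SMAD) and TATAAA (the TATA box).
Padi3 (chr4:140810599-140810898, minus strand): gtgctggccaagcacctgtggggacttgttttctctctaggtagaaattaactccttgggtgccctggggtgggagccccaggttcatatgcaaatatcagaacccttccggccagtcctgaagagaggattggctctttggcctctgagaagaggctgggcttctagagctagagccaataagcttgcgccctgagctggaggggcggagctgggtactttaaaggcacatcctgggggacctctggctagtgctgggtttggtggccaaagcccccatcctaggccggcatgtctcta
Padi4 (chr4:140774154-140774453, minus strand): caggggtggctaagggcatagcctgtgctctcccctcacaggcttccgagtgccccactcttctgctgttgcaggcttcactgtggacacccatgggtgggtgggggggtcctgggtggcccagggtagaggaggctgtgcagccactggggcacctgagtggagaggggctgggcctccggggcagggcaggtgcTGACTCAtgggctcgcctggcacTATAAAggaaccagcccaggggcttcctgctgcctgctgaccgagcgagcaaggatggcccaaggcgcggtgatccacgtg
Padi1 (chr4:140845729-140846028, minus strand): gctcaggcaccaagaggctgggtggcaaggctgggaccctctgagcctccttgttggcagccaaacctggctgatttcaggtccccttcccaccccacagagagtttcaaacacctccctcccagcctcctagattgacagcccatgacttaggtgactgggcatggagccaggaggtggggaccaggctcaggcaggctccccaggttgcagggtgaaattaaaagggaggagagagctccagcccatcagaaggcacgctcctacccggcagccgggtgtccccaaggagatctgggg
Tgm3 (chr2:130012090-130012389, plus strand): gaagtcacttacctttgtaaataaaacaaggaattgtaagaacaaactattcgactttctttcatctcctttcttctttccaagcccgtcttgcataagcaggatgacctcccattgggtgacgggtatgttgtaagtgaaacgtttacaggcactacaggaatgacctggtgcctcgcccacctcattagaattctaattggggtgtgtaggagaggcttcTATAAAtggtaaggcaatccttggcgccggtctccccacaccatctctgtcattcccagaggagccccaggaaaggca

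The Padi4 promoter held 1 AP-1 motif, TGACTCA, starting at -54 from the start site and 1 TATA box at -31. The Tgm3 promoter held 1 TATA box at -28. None of the 4 motifs was found in the 300 bases of Padi3 or Padi1. Over all 32851 promoters of that length, 7.81% held the AP-1 motif, 13.6% the TATA box, 3.73% the TCF/LEF motif and 49.6% the SMAD motif. A promoter sequence was found for 8 of the 9 genes (all but Tgm2). Among the others, the TCF/LEF motif was found once, at -208 of one of the 2 start sites of Tgm1. The SMAD motif was found at each start site of Tgm1 (-104 and -219) and in Tgm6 (-169 and -48). A match describes the letters only.

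Padi3, the deiminase of the hair follicle that acts on trichohyalin and on the hair cuticle protein S100a3, was close to absent from WT penis and abundant in SA tumors. It had 5873, 6512 and 13418 counts in SA tumors 1, 2 and 3, which were 218, 216 and 109 CPM. WT penises 1, 2 and 3 had 17, 12 and 8 counts, or 0.769, 0.401 and 0.364 CPM. Every SA tumor was above every WT penis, and SA tumor 3 was well below the other tumors. The mean rose 354-fold, from 0.511 ± 0.224 to 181 ± 62.3 CPM (log2 fold change 8.48, SE 0.427, adjusted p = 6.66e-06, edgeR quasi-likelihood test). Over summed counts, with 37 in the WT penises, the ratio was 286 (95% counting interval 208 to 407).

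Padi4 is expressed in neutrophils and other white blood cells, where it citrullinates histones. It had 2324, 1721 and 4522 counts in SA tumors 1, 2 and 3, or 86.4, 57.0 and 36.7 CPM. WT penises 1, 2 and 3 had 6, 12 and 2 counts, or 0.271, 0.401 and 0.0911 CPM. The groups did not overlap, and within the tumors the order was the same as for Padi3, with tumor 1 the highest and tumor 3 the lowest. The mean was 236-fold higher in SA tumors (60.0 ± 25.0 against 0.254 ± 0.155 CPM), with a log2 fold change of 7.79 (SE 0.502, edgeR adjusted p = 1.99e-05). Over summed counts, with 20 in the WT penises, the ratio was 176 (95% counting interval 114 to 288). Padi3 and Padi4 cannot be ranked by fold change, since without WT penis 2 their log2 fold changes were 8.29 and 8.32.

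Padi1, the deiminase of epidermal keratinocytes, was the main deiminase of WT penis and rose less. It had 68.4, 63.4 and 49.2 CPM in SA tumors 1, 2 and 3 and 13.1, 14.3 and 12.8 CPM in WT penises 1, 2 and 3. All tumors were above all WT penises, and tumor 3 was again the lowest. The mean rose 4.50-fold, from 13.4 ± 0.820 to 60.3 ± 9.96 CPM (log2 fold change 2.17, SE 0.146, edgeR adjusted p = 1.03e-05). The fold lies close to the threshold, and against that threshold itself (edgeR's glmTreat) Padi1 had an adjusted p of 0.412.

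Padi2 is the most widely expressed deiminase and acts on myelin basic protein and vimentin. It was low, with 2.71, 4.83 and 6.86 CPM in SA tumors 1, 2 and 3 and 3.62, 2.70 and 2.73 CPM in WT penises 1, 2 and 3. The groups overlapped, and the tumors ran in the opposite order to the other deiminases, with tumor 3 the highest. The log2 fold change of 0.69 (SE 0.339) did not pass the test (edgeR adjusted p = 0.118).

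The fall in SA tumors was in Tgm2, or tissue transglutaminase, a widely expressed enzyme of endothelium, smooth muscle and stroma that also works outside the cell. It had 13.2, 21.3 and 49.9 CPM in SA tumors 1, 2 and 3 and 162, 165 and 133 CPM in WT penises 1, 2 and 3. Every tumor was below every WT penis, and tumor 3 was the nearest to them. The mean was 5.45-fold lower (28.1 ± 19.3 against 153 ± 17.8 CPM), with a log2 fold change of -2.43 (SE 0.485, edgeR adjusted p = 0.00647). Without SA tumor 3 the log2 fold change was -3.15 (adjusted p = 2.26e-05). The call was lost at adjusted p values of 0.0196 to 0.0299 when SA tumor 2 or any 1 of the 3 WT penises was left out, without the filter on low counts (0.021) and against the fold threshold itself (0.642, glmTreat).

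Tgm3, which cross-links trichohyalin and envelope proteins in hair follicle and epidermis, was the most abundant of the 9 genes. It had 935, 1179.7 and 758 CPM in SA tumors 1, 2 and 3 and 1429.8, 1460.3 and 1551 CPM in WT penises 1, 2 and 3. The tumors lay below all WT penises and were more spread. The means were 958 ± 212 and 1480.4 ± 63.1 CPM, and the log2 fold change of -0.63 (SE 0.162) missed the threshold (edgeR adjusted p = 0.0110, 0.00099 by DESeq2).

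Tgm1 is the membrane-bound transglutaminase of keratinocytes that begins the cornified envelope. It had 290.3, 324 and 284 CPM in SA tumors 1, 2 and 3 and 336, 361 and 404 CPM in WT penises 1, 2 and 3, a narrow range without overlap. The log2 fold change was -0.29 (SE 0.109, edgeR adjusted p = 0.0507), and with libraries scaled by their totals alone it was -0.01.

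Tgm5, another transglutaminase of the upper epidermis, had 64.7, 79.8 and 56.6 CPM in SA tumors 1, 2 and 3. The WT penises had 48.5, 48.3 and 37.7 CPM, so that all tumors were above them, by a log2 fold change of 0.58 (SE 0.155) that missed the threshold (edgeR adjusted p = 0.0134, 0.00476 by DESeq2). Scaling by library totals gave 0.86 (adjusted p = 0.00162).

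Tgm6 is best known from the nervous system. It had 14.8, 12.6 and 11.5 CPM in SA tumors 1, 2 and 3 and 20.5, 22.2 and 19.5 CPM in WT penises 1, 2 and 3. All tumors were below all WT penises, and the log2 fold change of -0.68 (SE 0.137) passed the adjusted p threshold (edgeR adjusted p = 0.0033) but not that of fold. It passed neither without SA tumor 2 (0.0129), without WT penis 2 (0.0189) nor with library totals (0.0333).

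In 8 of the 9 genes the groups did not overlap, with 4 higher (Tgm5, Padi1, Padi3 and Padi4) and 4 lower (Tgm1, Tgm2, Tgm3 and Tgm6) in every tumor. Over all genes tested, 32.7% were higher and 30.7% lower in every tumor without overlap.

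Levels of different genes were compared per length, as the transcripts-per-million values (TPM) that the authors deposited. In WT penis Tgm3 was highest, at 491 ± 49.2 TPM (SD, n = 3), followed by Tgm1 (177), Tgm2 (59.0), Tgm5 (24.2), Tgm6 (8.19), Padi1 (4.90), Padi2 (0.865), Padi3 (0.225) and Padi4 (0.131). Only Padi3 and Padi4, at the bottom of this order, overlapped with their neighbour over the 3 samples. In SA tumors Tgm3 (408 ± 76.8 TPM) and Tgm1 (186) kept the first places, and Padi3 came next at 104 ± 34.2 TPM. Tgm5 (46.8), Padi4 (40.3), Padi1 (28.4), Tgm2 (14.2) and Tgm6 (6.62) followed, each from Tgm5 to Tgm2 overlapping with the next. Padi2 (1.80) was the lowest and did not overlap with Tgm6. The mean TPM of Tgm1 was higher in the tumors while its TMM-normalised CPM was lower, and its TPM ranges overlapped.

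The 4 deiminases together made up 219, 188 and 117 TPM in SA tumors 1, 2 and 3 against 5.89, 6.51 and 5.95 TPM in WT penises 1, 2 and 3. The 5 transglutaminases made up 646, 752 and 588 TPM in the tumors and 683, 769 and 828 TPM in the WT penises, which overlapped. Padi1 held 80.0 ± 3.61% of the deiminase TPM in WT penis and 16.9 ± 3.10% in SA tumors. Padi3 went from 3.71 ± 1.50% to 59.2 ± 4.37% of it and Padi4 from 2.11 ± 1.21% to 22.7 ± 3.60%. Padi2 went from 14.2 ± 2.18% to 1.22 ± 0.929%. For all 4 the exact two-sided permutation p was 0.1, the smallest that 3 samples against 3 can give. The shares of a family sum to 100%, so a rise of 1 gene lowers the others and these p-values are not independent. Padi1 and Padi2 fell in share while their mean TPM rose, from 4.90 to 28.4 and from 0.865 to 1.80.

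Tgm3 held 64.6 ± 0.633% of the transglutaminase TPM in WT penis and 61.3 ± 4.12% in SA tumors (exact permutation p = 0.3). Tgm2 held 7.83 ± 1.14% and 2.25 ± 1.84%, and Tgm5 held 3.22 ± 0.540% and 7.06 ± 0.121% (both exact permutation p = 0.1).

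**Figure D3:**
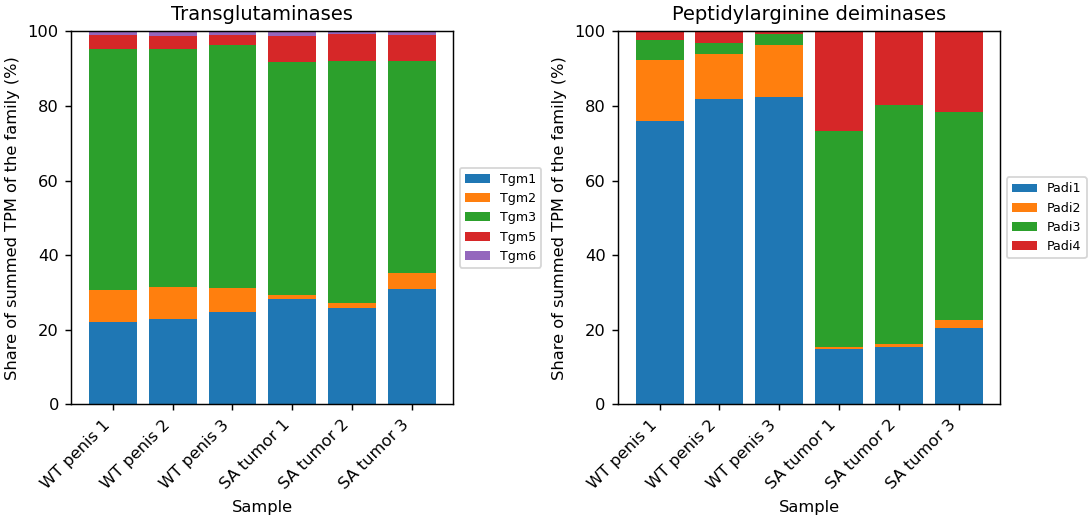
Share of each gene in the summed TPM of the 5 transglutaminases (left) and the 4 deiminases (right), in percent, for each of the 6 samples. Padi1 fills 75.8 to 82.4% of the deiminase bar in the WT penises, and Padi3 fills 55.5 to 64.0% of it in the SA tumors, while the transglutaminase bars keep Tgm3 as the largest share.

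Of the related genes outside the 9, Tgm7, a transglutaminase of little known function, was higher in SA tumors from a very low level. It had 64, 33 and 160 counts in SA tumors 1, 2 and 3 and 1, 3 and 1 counts in the WT penises (log2 fold change 4.49, SE 0.558, edgeR adjusted p = 0.00025). Taken over summed counts, the ratio was 21.1 (95% counting interval 8.93 to 65.6). Its level of 1.59 ± 0.690 CPM in tumors was far under that of Tgm5, which lies 7.66 kb away on chromosome 2.

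Tgm4, the prostate transglutaminase, had 15.3 ± 2.00 CPM in SA tumors and 14.2 ± 0.834 CPM in WT penises (log2 fold change 0.11, SE 0.142, edgeR adjusted p = 0.557). F13a1, the catalytic subunit of clotting factor XIII that macrophages and platelets carry, was 15.1 ± 6.77 CPM in tumors and 47.8 ± 7.63 CPM in WT penises. Its log2 fold change of -1.65 (SE 0.348) passed the adjusted p threshold only (edgeR adjusted p = 0.00602), and not when SA tumor 3 or any 1 WT penis was left out. Padi6, the deiminase of the oocyte, had at most 21 counts in a sample, and Epb42, a red cell membrane protein of the same family without enzyme activity, at most 62, and neither was tested. F13b, a carrier of factor XIII with no enzyme activity of its own, had 0 counts in all 6 samples.

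On chromosome 4 the 5 deiminase genes from Padi6 to Padi2 span 225 kb, with 2.33 kb between Padi1 and Padi3 and 11.1 kb between Padi3 and Padi4 (RefSeq positions on GRCm38.p6, which is mm10). Padi4 (chr4:140745508-140774239), Padi3 (chr4:140785369-140810648) and Padi1 (chr4:140812981-140845778) lie on the minus strand. Padi2 (chr4:140906336-140952586) lies 60.6 kb beyond Padi1 on the plus strand. Of the 5 genes tested inside this stretch, 4 were higher in SA tumors, namely Padi4, Padi3, Padi1 and the noncoding RNA Gm13032 (log2 fold change 2.22, SE 0.213, edgeR adjusted p = 6.24e-05). The nearest genes on either side, Rcc2 (0.29) before Padi6 and Sdhb (0.37) after Padi2, passed neither threshold, and none of the 5 tested genes after Padi2 passed both (edgeR), Atp13a2 (1.12) having the largest change. Of the 5 before Padi6, Klhdc7a (4.58) and Pax7 (3.50) were higher, and Igsf21, Arhgef10l and Rcc2 lie between them and the cluster.

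Gm13032 is annotated on the opposite strand to Padi1 and shares 1200 of its 2001 exon bases with exons of Padi1 (GENCODE). The strand setting of the counting is not given in the sources used here, so reads from the 2 genes cannot be told apart. There were between 2.98 and 4.06 Padi1 counts for each Gm13032 count in the 6 samples.

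**Figure D4:**
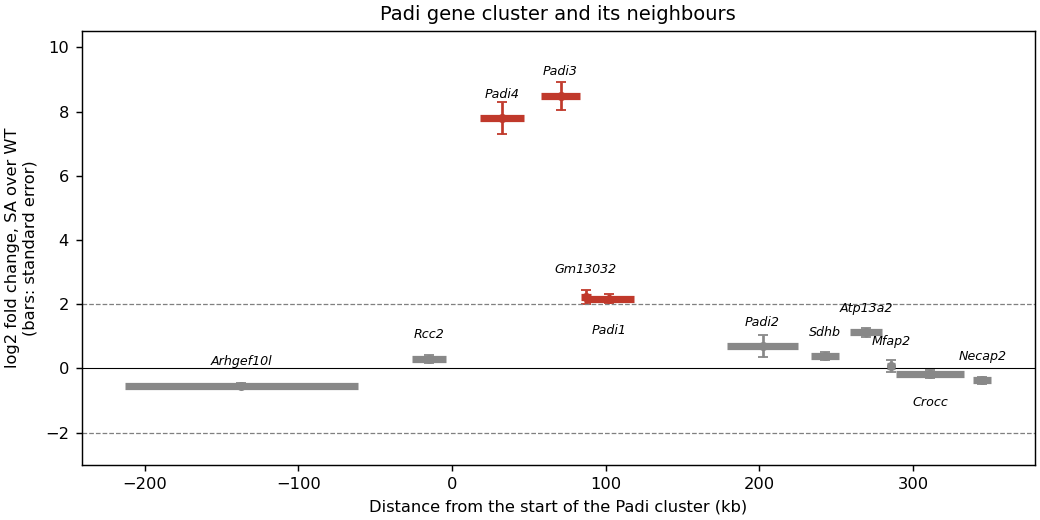
Log2 fold change of SA tumor over WT penis, with its standard error, against distance in kb from the start of the Padi cluster, for tested genes within 300 kb of it or in the 5 genes after it. Horizontal bars show each gene's extent, red bars passed both thresholds, and dashed lines mark the fold threshold. Padi4, Padi3, Gm13032 and Padi1 lie above the upper line, and Padi2 (0.69) and the outer genes shown, of which Atp13a2 (1.12) is the highest, lie between the lines.

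On chromosome 2, Tgm3 (chr2:129987794-130050399) and Tgm6 (chr2:130112416-130154233) lie 62.0 kb apart. Of the 10 tested genes around them 3 passed both thresholds, Il1b (6.72) and Il1bos (3.41) higher and Tmc2 (-5.25) lower. Over all genes tested 9.41% were higher and 3.59% lower. Il1b and Il1bos start at -623 and -618 kb from the start of Tgm3. Their RefSeq extents overlap, and whether they share reads was not tested. Tgm5 (chr2:121046111-121085841) lies beside Tgm7, and none of the 10 tested genes around that pair passed both thresholds. Tgm2 (chr2:158116405-158146392, minus strand) shares 370 exon bases with Rprd1b on the other strand (GENCODE). The Rprd1b transcript counted here (log2 fold change -0.61) has a RefSeq extent that ends at chr2:158078207, before Tgm2. Of the 10 tested genes around Tgm2, Nnat (2.70) was higher past both thresholds and none was lower. Tgm1 (chr14:55700009-55713921) was counted as 3 transcripts and Tgm6 as 4.

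The substrates were examined from lists of targets and relatives of targets, and Tchhl1 was listed as a relative of trichohyalin. Of 20 cornified envelope substrates of transglutaminases, all tested, 2 were lower past both thresholds and none was higher, with a median log2 fold change of -1.25. By DESeq2 and by limma-voom 2 were higher, and Sprr2d (4.04, edgeR adjusted p = 0.0117) and Sprr2a1 (3.17, adjusted p = 0.0158) had the most positive values. Without SA tumor 2 there were 4 lower, without SA tumor 1 there was 1, and without WT penis 3 there were 5. At the adjusted p alone 13 were lower and 1 was higher. The 2 lower genes were Lor, the main envelope protein loricrin (564 ± 157 against 2748 ± 378 CPM, log2 fold change -2.28), and the small proline-rich protein Sprr1a (-2.01). The desmosomal plaque protein Dsp (-1.23), the plakin Ppl (-1.54) and involucrin, Ivl (-1.92), passed the adjusted p threshold only. Sprr1b moved the other way (1.32), also at the adjusted p alone. Summed over the 20 genes, SA tumors had 10545 to 11427 CPM and WT penises 26271 to 28176 CPM.

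Substrates of the deiminases split. Of 11 tested, 3 were higher and 1 was lower past both thresholds, with a median of -0.75. At the adjusted p alone 4 were higher and 5 were lower. Of the substrates of Padi2, myelin basic protein, Mbp, was lower at the adjusted p alone (31.3 ± 5.06 against 80.5 ± 3.93 CPM, log2 fold change -1.36, edgeR adjusted p = 5.82e-05). Vimentin, Vim (-0.75), missed the threshold (edgeR adjusted p = 0.0143). Filaggrin was not analysed here. Trichohyalin, Tchh, had 1975.5, 2071 and 996 CPM in SA tumors 1, 2 and 3 and 23.0, 18.2 and 17.5 CPM in WT penises 1, 2 and 3. As with Padi3, tumor 3 was the lowest of the tumors, and its log2 fold change was 6.43 (SE 0.338, edgeR adjusted p = 5.34e-06). Its relative Tchhl1 (7.74) and S100a3 (4.99, SE 0.673) were also higher. S100a3 had 57.5, 107 and 21.2 CPM in SA tumors 1, 2 and 3 and at most 2.24 CPM in a WT penis.

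The epidermal substrates moved in both directions. Hrnr, the filaggrin-like protein hornerin, was 281 ± 7.52 CPM in tumors and 2883 ± 226 CPM in WT penises (log2 fold change -3.36, SE 0.118, edgeR adjusted p = 1.04e-06). The keratins Krt1 (-1.63) and Krt10 (-1.97) and repetin, Rptn (-1.21), were lower at the adjusted p alone. Flg2, another filaggrin-like protein, was higher at the adjusted p alone (5.89 ± 0.937 against 1.85 ± 0.488 CPM, log2 fold change 1.66, SE 0.260, edgeR adjusted p = 0.000883), and Krt2 (0.60) did not pass the test.

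Of 12 proteases and inhibitors that act on these enzymes or their products, 1 was higher and 1 was lower past both thresholds, with a median of -0.29. Casp14, the caspase of cornifying keratinocytes that helps break down filaggrin, was higher (96.7 ± 17.7 against 21.1 ± 2.84 CPM, log2 fold change 2.19). Spink5, which encodes an inhibitor of epidermal kallikreins, was lower (1186 ± 127 against 8888 ± 460 CPM, log2 fold change -2.91). Cst6, the inhibitor of the cathepsins that activate Tgm3, had a log2 fold change of -0.65 that missed the threshold (edgeR adjusted p = 0.0108).

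Of 10 matrix and surface partners of Tgm2, 1 was higher and none was lower past both thresholds, with a median of 0.35. At the adjusted p alone 2 were higher and 2 were lower, the latter being the galectin Lgals3 (-1.73) and the syndecan Sdc4 (-1.35). The gene past both thresholds was Fn1, fibronectin, which Tgm2 binds and cross-links. It had 455, 636 and 1096 CPM in SA tumors 1, 2 and 3 and 152, 136 and 175 CPM in WT penises 1, 2 and 3 (log2 fold change 2.24, SE 0.313, edgeR adjusted p = 8e-04). Without SA tumor 3 it no longer passed both thresholds.

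**Figure D5:**
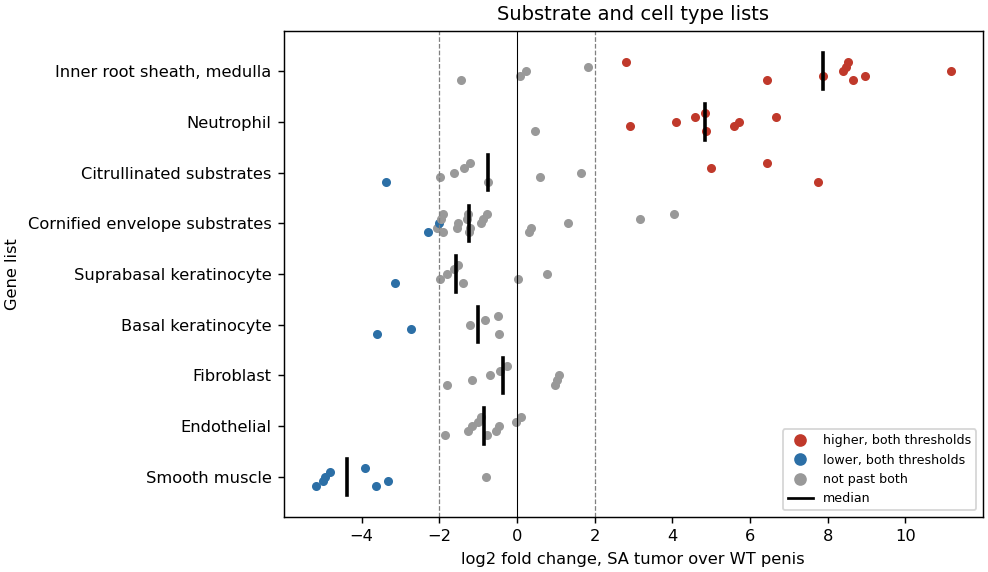
Log2 fold change of SA tumor over WT penis for each tested gene (points) of 9 lists of substrates and cell type markers, with a black bar at the list's median. The substrates of transglutaminases, and the epidermal keratinocyte and smooth muscle markers, lie mostly below 0, and the hair inner root sheath and neutrophil markers above 0 except for Foxn1 (-1.43).

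Markers of the cells that could carry these enzymes moved as well. The samples were bulk tissue, so fewer cells of a type and less RNA per cell cannot be told apart. How much tissue beneath the epithelium was taken with each sample is not given, and it cannot be told apart from these either. Of 13 markers of the hair's inner root sheath and medulla, where Padi3 and Tgm3 act, 9 were higher past both thresholds and none was lower, with a median log2 fold change of 7.89 (6.43 with Krt26, which had no count in WT penis, set at the bound that 3 counts in each WT library give). They include Tchh, which is also a substrate above. Krt73 (8.53) and Krt27 (8.95), keratins of the inner root sheath, were among them, and the appendage factor Dlx3 (0.07) was not. By DESeq2 9 of the 13 were higher past both thresholds, and by limma-voom 7. Foxn1, a transcription factor of hair differentiation, went the other way at the adjusted p alone (25.4 ± 2.51 against 68.3 ± 6.88 CPM, log2 fold change -1.43, edgeR adjusted p = 3.21e-05). Summed, the markers had 3080, 3527 and 1570.4 CPM in SA tumors 1, 2 and 3 and 211 to 248 CPM in WT penises. Padi1, Padi3 and Padi4 were also lowest in SA tumor 3, and the part of these cells in the rise of the deiminases was not tested.

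Of 9 neutrophil markers tested (4 others had too few counts and Ly6g was not analysed here), 8 were higher and none was lower, with a median of 4.84. S100a9 (4.86) and S100a8 (4.09), which keratinocytes can also make, and the receptor Csf3r (4.59) were higher, and Ltf (0.46, edgeR adjusted p = 0.513) did not pass. Summed, the markers had 1778, 1501 and 2560.5 CPM in SA tumors 1, 2 and 3 and 68.6 to 173 CPM in WT penises. SA tumor 3 was the highest in them, and it was the lowest in Padi4. Elane and Mpo, which mark immature neutrophils, were at or near 0, with at most 0.186 CPM in a sample. The part of neutrophils in the rise of Padi4 was not tested. None of 9 macrophage markers passed both thresholds in edgeR, DESeq2 or limma-voom, and the median was -0.01. At the adjusted p alone (edgeR) 2 were lower and none was higher, and 2 were lower at an unadjusted p under 0.05.

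Of 8 smooth muscle markers 7 were lower and none was higher, with a median of -4.37. Myh11 (-5.00), Acta2 (-3.92) and Tagln (-3.63) were among them. Summed, they had 105, 180.4 and 226 CPM in SA tumors 1, 2 and 3 and 1832 to 2421 CPM in WT penises. None of 10 endothelial markers passed both thresholds in edgeR, DESeq2 or limma-voom, and the median was -0.84. At the adjusted p alone (edgeR) 4 were lower and none was higher, and 6 were lower at an unadjusted p under 0.05. Their sums were 211, 261 and 368 CPM in SA tumors 1, 2 and 3 and 411 to 518 CPM in WT penises. None of 8 fibroblast markers passed both in any of these tools, and the median was -0.35. At the adjusted p alone (edgeR) 1 was higher and 1 was lower. An unadjusted p under 0.05 gave 3 higher and 1 lower. The fibroblast markers summed to 1620.4, 4096 and 5204 CPM in SA tumors 1, 2 and 3 and 6266 to 6544 CPM in WT penises. In these 3 lists the tumors ran in the order of Tgm2, with tumor 1 the lowest and tumor 3 the highest. The macrophage markers (187, 451 and 488 CPM in SA tumors 1, 2 and 3, 308 to 432 CPM in WT penises) and the summed Tgm2 partners (1910.2, 2547 and 3171 CPM in the tumors) ran in that order too. The part of these cells in the fall of Tgm2 was not tested.

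The defining keratins of the labelled epithelium were present in all samples. Of 6 basal keratinocyte markers 2 were lower past both thresholds, Col17a1 (-2.74) and Krt15 (-3.61), with a median of -1.02. At the adjusted p alone 4 were lower and none was higher. Krt14 stood at 5669 ± 861 CPM in SA tumors and 7942 ± 1607 CPM in WT penises (log2 fold change -0.49, edgeR adjusted p = 0.0504). Krt5 was lower at the adjusted p alone, with 3284 ± 269 CPM in SA tumors and 7614 ± 182 CPM in WT penises (log2 fold change -1.21, edgeR adjusted p = 7.35e-05). Of 8 suprabasal markers 1 was lower past both thresholds, Sbsn (-3.14), with a median of -1.57. At the adjusted p alone 6 were lower and 1 was higher. Of 5 skeletal muscle markers tested, 1 was higher and 1 was lower, and they summed to at most 17.4 CPM in any sample.

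By Pearson correlation of log2 CPM over the 6 samples, Padi3 was most like Erich3 (0.9999) and Gpc1 (0.9998), Padi4 was most like Ppa1 and Il19 and Padi1 was most like Cd5 and Irx4, over the 13822 genes whose counts averaged 100 or more. The 6 samples form only 2 groups, and 405 genes had a correlation above 0.99 with Padi3, 251 with Padi4 and 399 with Padi1. Tgm2 was most like Mamstr and Crebl2, and 71 genes were above 0.99 with it. Tgm6 was most like Hephl1 (0.9990), and 7 genes were above 0.99.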

How the data were processed

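Libraries were stranded and paired-end, from 3 SA penile tumors and 3 WT penile epithelia. Alignment to mm10 by the authors used TopHat, HTSeq gave the counts, and raw counts per RefSeq transcript were deposited without normalization. The authors also deposited FPKM, which was not used, and TPM, which served only for levels between genes. Versions and the strand setting of counting are not given in the sources used here. A read shared by transcripts was counted in each, so the transcript of highest mean count stood for its gene. A floor of 3 counts was 0.0244 to 0.137 CPM and, like the intervals, covers counting error only.

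Counts were analysed with edgeR 4.0.16 in R 4.3.3. Genes were kept by filterByExpr (minimum 10 counts scaled to the median library, at least 3 samples, total of 15), scaled by TMM and compared by the robust quasi-likelihood F-test, with p-values adjusted by Benjamini-Hochberg over 16336 genes. The thresholds (adjusted p below 0.01, log2 fold change of 2 or more in size) follow the study's methods. The SE is the log2 fold change divided by the square root of F, and log2 CPM used a prior count of 2. The labels do not name the animals, so p-values measure the spread between these samples. The model was also run on counts simulated from the levels and dispersions of these data. That simulation held fewer changed genes than the data, with as many higher as lower, so it checks the running of the fit only.

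The genes and lists were chosen with earlier results of these data known. Named were the 9 genes, their relatives and chromosome neighbours, Smad4 and Apc, and the 2 genes most like each by correlation. From each list, its counts and at most its 4 most abundant genes or listed targets of the enzymes were named. Casp14, Cst6, Krt26, Foxn1, Sdc4, Elane and Mpo fall outside that rule and were chosen after their values were seen. Epb42 was matched by RefSeq accession to an older symbol. Alternatives were DESeq2 1.42.0, limma-voom (3.58.1), other scalings, filters and transcript choices, glmTreat, a replicate block and each sample left out.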

Additional observations from a re-analysis of the deposited data

How the results depend on the processing

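No gene of the 9 changed direction under any of the 18 alternatives. The 3 higher genes stayed at 3 in every fit that left out 1 sample (3 to 3), while the number lower ranged from 0 to 1, Tgm2 holding in 2 of 6 such fits with log2 fold changes of -3.15 to -2.10. It was 0 without the filter on low counts (Tgm2 adjusted p = 0.021), under glmTreat (0.642) and with the replicate block (0.0166). Over all genes, 1391 to 1614 were higher and 529 to 710 were lower when 1 sample was left out, and 749 and 180 under glmTreat. Library totals alone moved the median of all genes to 0.31, and 80.0% of calls were then higher. Same-numbered samples had residuals with a mean correlation of -0.07 (different numbers 0.03), and 1 of 6 samples correlated best with its own number, so that the numbers were not taken as pairs. The replicate block changed no other call of the 9 genes at both thresholds. Leaving out 1 sample each, the cornified envelope list had 0 to 2 higher and 1 to 5 lower, the citrullinated list 1 to 2 lower, the Tgm2 partners 0 to 1 higher, the suprabasal markers 1 to 2 lower, the endothelial and fibroblast markers each 0 to 1 lower, and the skeletal muscle markers 1 to 2 higher (2 without the filter). With transcript rows summed, which counts reads of Tgm1 and Tgm6 more than once, Tgm2 held 5.22% and Tgm3 43.0% of the WT transglutaminase TPM, and Tgm3 38.4% in SA tumors. Depth limits Padi3, Padi4 and Tgm7 in WT penis, which rest on at most 17 counts in a sample.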
